A study of Mus musculus with 6 samples.

Results

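The SR proteins and the heterogeneous nuclear ribonucleoproteins (hnRNPs) were examined in resting and LPS-stimulated mouse splenic B-cells. The members were the genes named Srsf followed by a number and the genes whose name begins with Hnrnp, with names marked as pseudogenes left out. The rule gave 31 of the 46963 gene names, 11 Srsf and 20 Hnrnp genes, and left out 1 pseudogene name. All were annotated as protein-coding. Of these members, 30 had at least 10 counts in at least 2 libraries and were tested, with never fewer than 49 counts in a library. The exception was Srsf12, with at most 3 counts in any library, and all other members are described below.

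The 6 RNA-seq libraries came from wt mice, Eμ-deficient mice, which lack the enhancer Eμ of the immunoglobulin heavy chain (IgH) locus, and 3′RR-deficient mice, which lack the 3′ regulatory region of the same locus. Both mutant lines were kept in a 129 background, the wt mice were 129 mice, and young adults of both sexes were used. The study's methods name the Eμ-deficient line EμMAR-deficient. Each genotype gave 1 library of resting CD43-depleted splenic B-cells and 1 of the same kind of cells cultured for 2 days with 5 μg/ml LPS, a bacterial lipopolysaccharide that drives B-cells to divide and to switch class. Each library pooled 2 mice according to the labels, whereas the methods name 4 mice and 2 RNA pools for each genotype, and which mice a library holds is not given in the sources used here. The labels also state that the resting cells had been cultured for 2 days without LPS, whereas the methods describe them as taken before stimulation.

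SR proteins carry RNA recognition motifs and a domain rich in arginine and serine, and they bind exonic enhancers and bring the spliceosome to nearby splice sites. hnRNPs coat nascent transcripts and often act in the opposite direction, masking splice sites or looping out exons, and several also act in RNA export, stability and translation. Many genes of both families limit their own level through exons or introns that, when included, send the transcript to nonsense-mediated decay. In lymphocytes these proteins are known for the alternative splicing of Ptprc (CD45) and for the choice between the membrane and secreted forms of IgM.

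Library depth ranged from 9111974 to 21998587 counts in genes, and levels are given as CPM, the counts of a gene relative to the size of its library after TMM scaling. B-cell markers were present in every library, with a summed level of 1750 to 3230 CPM. The resting libraries also held transcripts of other cells. The 6 erythroid markers summed to 3350, 20100 and 3860 CPM in the wt, Eμ-deficient and 3′RR-deficient resting libraries and to 52.9, 670 and 133 CPM after LPS, and no erythroid, myeloid or T-cell marker was at 0 in all libraries. All 9 proliferation genes rose with LPS, with a median log2 fold change of 3.28. The 2 libraries from wt and 3′RR-deficient cells after LPS stood apart in opposite directions in the spike-in RNAs. Between them the log2 ratios of 35 spike-ins had an SD of 1.27, against 0.157 between the corresponding resting libraries. The LPS over resting ratio of spike-ins had an SD of 0.784 in wt, 0.135 in Eμ-deficient and 0.633 in 3′RR-deficient cells. The log2 ratios over all genes between those LPS libraries also followed GC content, with a Spearman rho of 0.56 across 14354 genes, which are not independent replicates.

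Stimulation by LPS was the comparison in which members changed. Of the 30 members, 8 rose and 1 fell. Those that rose were Srsf1, Srsf2, Srsf9, Hnrnpa0, Hnrnpa1, Hnrnpab, Hnrnpc and Hnrnpd, and the member that fell was Srsf5. The test was edgeR's quasi-likelihood test with genotype and state as additive terms, with p-values adjusted by the Benjamini-Hochberg method over 14600 genes and a threshold of 0.05. Of all genes tested, 19.7% were called higher and 21.1% were called lower. The members' shares were 26.7% and 3.33%. With the libraries scaled to the spike-ins instead, the shares were 9.96% and 19.9% of all genes and 6.67% and 3.33% of the members. The share of members called higher thus stood little above that of all genes in the first case and below it in the second. With 1 library per genotype and state, the test measures how far the 3 genotypes depart from a shared response, and not the spread between mice. In bulk RNA, a change in the make-up of the cells and a change of RNA per cell cannot be told apart.

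The members' median log2 fold change with LPS was 0.52, against -0.07 for all genes tested. It was 0.46 for the 10 Srsf genes tested and 0.57 for the 20 Hnrnp genes. The fitted change was positive for 25 members and negative for 5. All 3 LPS libraries lay above all 3 resting libraries for 16 members (53.3%), whereas this held for 25.0% of all genes. The reverse order was found for Srsf5 alone among the members (3.33%), and for 27.3% of all genes. The 16 members comprised the 8 that rose and Srsf7, Hnrnpa3, Hnrnpf, Hnrnpk, Hnrnpl, Hnrnpm, Hnrnpr and Hnrnpul1. The plot of LPS ratios by member sets out the size of the response in each genotype.

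**Figure D1:**
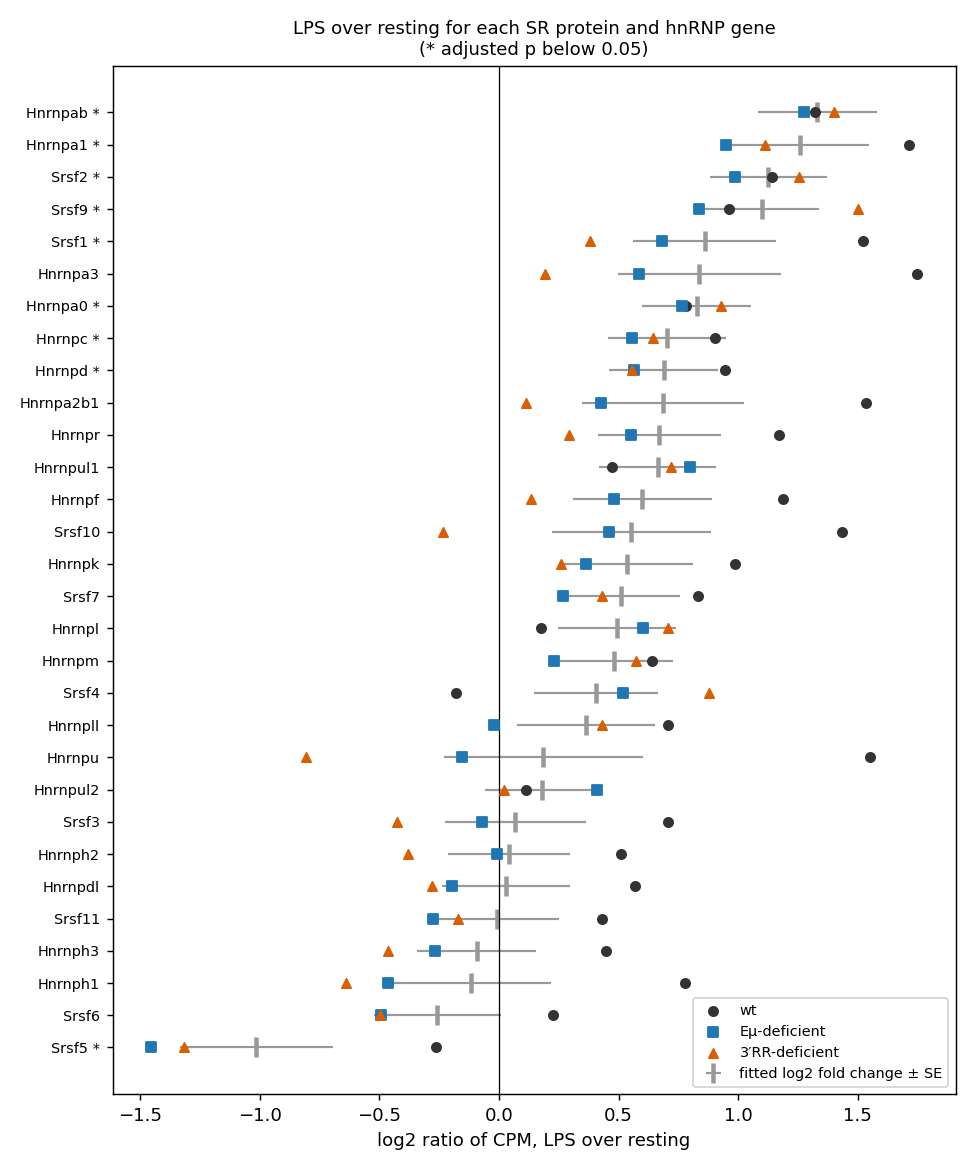
Log2 ratio of CPM, LPS over resting (x axis), for each of the 30 tested members (y axis), with 1 point for each genotype and a grey mark with a bar for the fitted log2 fold change ± SE from edgeR. Asterisks mark the 9 members past the threshold. The wt point lies to the right of both mutant points for 22 members, and Srsf5 lies to the left of 0 in each genotype. The share of all genes with wt to the right of both mutants was not counted.

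Hnrnpab, an hnRNP of the A/B type with roles in splicing and in RNA transport and translation, showed the largest rise (chr11:51600100-51606847, minus strand, GRCm38). In resting cells it stood at 175 CPM in wt, 139 CPM in Eμ-deficient and 143 CPM in 3′RR-deficient cells. After LPS it stood at 437, 335 and 377 CPM. The groups did not overlap, and the 3 genotypes gave nearly the same log2 ratio of LPS over resting, 1.32, 1.27 and 1.4. The fitted rise was 2.52-fold (log2 fold change 1.33 ± 0.25 SE, edgeR adjusted p = 0.00305). Hnrnpab shares 29.1% of its exonic bases with Phykpl on the opposite strand, and the counting used strand.

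Hnrnpa1, the most abundant member per exon length after LPS, binds splicing silencers and counteracts SR proteins in the choice of splice sites (chr15:103240432-103246692, plus strand). Its level in resting cells was 443, 495 and 502 CPM in wt, Eμ-deficient and 3′RR-deficient cells. After LPS it was 1455, 956 and 1084 CPM. All LPS libraries were above all resting libraries, and wt had the lowest resting level and the highest LPS level. The fitted rise was 2.39-fold (log2 fold change 1.26 ± 0.29 SE, edgeR adjusted p = 0.00819). Hnrnpab and Hnrnpa1 were called under each of the 14 alternative settings that were run.

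Srsf2, also known as SC35, an SR protein that marks nuclear speckles, lies at chr11:116849901-116853094 on the minus strand. Its resting level was 140, 119 and 132 CPM in wt, Eμ-deficient and 3′RR-deficient cells, and its LPS level was 310, 235 and 316 CPM. The groups did not overlap, and the Eμ-deficient library was the lowest in each state. The fitted rise was 2.18-fold (log2 fold change 1.13 ± 0.24 SE, edgeR adjusted p = 0.00623). Srsf9, a small SR protein able to act on alternative splice sites, was less abundant (chr5:115327177-115333080, plus strand). It stood at 20.7, 17.5 and 18.6 CPM in resting cells and at 40.3, 31.2 and 52.6 CPM after LPS. All 3 ratios were positive, the largest being that of 3′RR-deficient cells, and the fitted rise was 2.14-fold (log2 fold change 1.10 ± 0.24 SE, edgeR adjusted p = 0.00625).

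Srsf1, the founding SR protein also called ASF/SF2 and a regulator of splicing in lymphocytes, lies at chr11:88047373-88053755 on the plus strand. It stood at 212, 261 and 263 CPM in resting wt, Eμ-deficient and 3′RR-deficient cells. After LPS it stood at 607, 419 and 343 CPM. The groups did not overlap, but the ratios differed between genotypes, from 1.52 on the log2 scale in wt to 0.68 in Eμ-deficient and 0.38 in 3′RR-deficient cells. The fitted rise was 1.82-fold (log2 fold change 0.86 ± 0.30 SE, edgeR adjusted p = 0.0465). The call lay close to the threshold and was kept in 7 of 14 alternative settings, with adjusted p-values from 0.0105 to 0.265. It was lost without the wt (adjusted p = 0.052), the Eμ-deficient (0.137) or the 3′RR-deficient libraries (0.0508), with log2 fold changes of 0.56, 1.04 and 1.09.

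Hnrnpa0, an intronless A/B-type hnRNP that binds AU-rich RNA, lies at chr13:58125879-58128556 on the minus strand. It stood at 88.2, 69.4 and 79.1 CPM in resting cells and at 152, 118 and 151 CPM after LPS. Its 3 log2 ratios were close to each other, 0.78 in wt, 0.77 in Eμ-deficient and 0.93 in 3′RR-deficient cells. The fitted rise was 1.77-fold (log2 fold change 0.83 ± 0.23 SE, edgeR adjusted p = 0.018). It was 0.95 without the Eμ-deficient and 0.76 without the 3′RR-deficient libraries, where the call was lost (adjusted p = 0.119 and 0.103). The remaining 2 that rose were Hnrnpc, a core hnRNP that binds uridine tracts, and Hnrnpd, also known as AUF1, which binds AU-rich elements and acts on RNA decay. Hnrnpc ranged from 152 to 183 CPM in resting and from 238 to 342 CPM in LPS libraries (log2 fold change 0.70 ± 0.25 SE, edgeR adjusted p = 0.047). Hnrnpd ranged from 64.4 to 71.0 CPM in resting and from 95.3 to 137 CPM in LPS libraries (log2 fold change 0.69 ± 0.23 SE, edgeR adjusted p = 0.0388). Both were highest in the wt LPS library, and Hnrnpc and Hnrnpd kept their calls in 7 and 8 of the 14 alternative settings. Without the Eμ-deficient libraries the adjusted p was 0.198 for Hnrnpc and 0.163 for Hnrnpd, and without the 3′RR-deficient libraries it was 0.167 and 0.107, with log2 fold changes of 0.72 to 0.87 in these fits.

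Srsf5, an SR protein first described as an insulin-induced transcript of regenerating liver and also called HRS or SRp40, was the only member called lower (chr12:80945504-80950507, plus strand). In resting cells it stood at 703 CPM in wt, 1102 CPM in Eμ-deficient and 830 CPM in 3′RR-deficient cells. After LPS it stood at 586, 402 and 333 CPM. The groups did not overlap, but wt had the lowest resting and the highest LPS level. Its log2 ratio was -0.26 in wt (95% interval -0.30 to -0.23), -1.46 in Eμ-deficient (-1.50 to -1.41) and -1.32 in 3′RR-deficient cells (-1.38 to -1.26), where the exact Clopper-Pearson interval of the ratio of counts covers counting error only. The fitted fall was 2.02-fold (log2 fold change -1.02 ± 0.32 SE, edgeR adjusted p = 0.0315). The fall was no longer called without the Eμ-deficient libraries (log2 fold change -0.70, adjusted p = 0.376), without the 3′RR-deficient libraries (-0.87, 0.144) or without the 3′RR-deficient LPS library (-0.86, 0.148). With the trend on GC content removed from each ratio, the falls in the 3 genotypes were -0.73, -1.39 and -0.93.

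**Figure D2:**
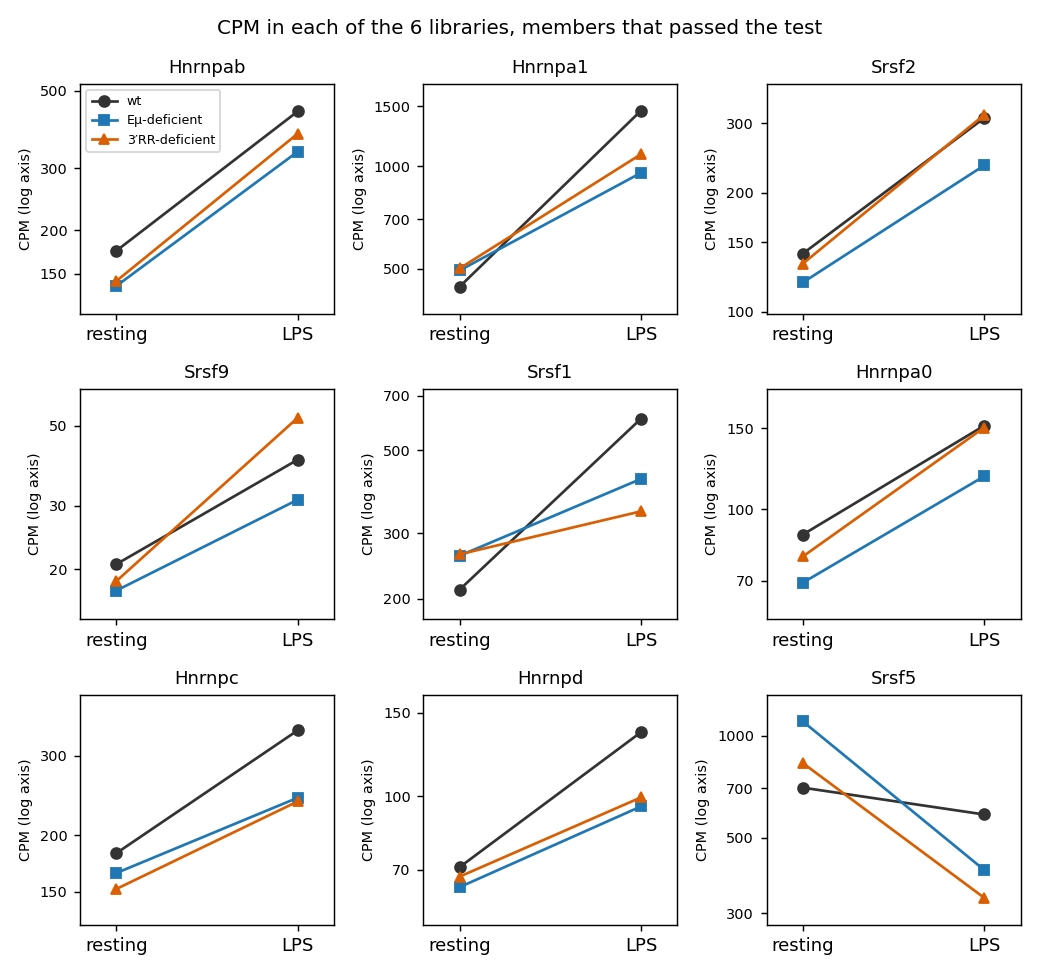
CPM (y axis, log scale, a separate range in each panel) of the 9 members past the threshold in the resting and LPS library of each genotype. Each line joins the 2 libraries of 1 genotype, and the lines rise in all genotypes in 8 panels and fall in the Srsf5 panel, least in wt.

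The promoters of Hnrnpab, Hnrnpa1 and Srsf2, with the largest rises, are shown beside that of Srsf5, the member that fell. The sequences are the 250 bases before the start of each gene from RefSeq on GRCm38.p6, written 5′ to 3′ on the strand of the gene, and capitals mark CCAAT or its reverse complement ATTGG, the CCAAT box.
Hnrnpab (chr11:51606882-51607131, minus strand): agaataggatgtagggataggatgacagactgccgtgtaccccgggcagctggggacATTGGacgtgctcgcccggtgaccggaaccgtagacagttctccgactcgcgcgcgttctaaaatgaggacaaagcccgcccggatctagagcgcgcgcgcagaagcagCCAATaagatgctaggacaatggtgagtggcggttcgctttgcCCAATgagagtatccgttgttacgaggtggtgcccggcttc
Hnrnpa1 (chr15:103240147-103240396, plus strand): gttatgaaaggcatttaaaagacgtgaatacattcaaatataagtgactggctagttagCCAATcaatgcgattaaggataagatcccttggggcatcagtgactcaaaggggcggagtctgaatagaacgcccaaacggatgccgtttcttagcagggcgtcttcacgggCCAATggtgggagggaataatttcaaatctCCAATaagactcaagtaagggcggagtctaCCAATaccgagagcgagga
Srsf2 (chr11:116853095-116853344, minus strand): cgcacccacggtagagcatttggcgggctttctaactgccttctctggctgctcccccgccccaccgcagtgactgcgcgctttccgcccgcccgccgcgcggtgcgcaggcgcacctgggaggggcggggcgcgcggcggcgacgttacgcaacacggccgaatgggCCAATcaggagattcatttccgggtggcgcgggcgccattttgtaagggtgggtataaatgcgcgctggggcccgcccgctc
Srsf5 (chr12:80945249-80945498, plus strand): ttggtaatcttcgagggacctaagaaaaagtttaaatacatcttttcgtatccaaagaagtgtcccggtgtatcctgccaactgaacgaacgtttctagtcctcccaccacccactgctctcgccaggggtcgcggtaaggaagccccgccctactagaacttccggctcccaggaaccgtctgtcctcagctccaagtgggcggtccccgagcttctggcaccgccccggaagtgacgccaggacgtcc

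The Hnrnpa1 window held 4 CCAAT boxes, beginning 19, 49, 79 and 191 bases before the start, that of Hnrnpab 3, beginning 41, 84 and 193 bases before it, and that of Srsf2 1, at 82 bases. The Srsf5 window held none. Promoters were found for 29 of the 31 members, and not for Hnrnpll and Hnrnpul2. CCAAT or ATTGG occurred in 15 of the 29 windows (51.7%), against 34.5% of all 27025 promoters of the same length and 37.2% of the 9004 promoters of tested protein-coding genes. It occurred in 5 of the 8 members that rose, and not in Srsf1, Srsf9 or Hnrnpd. The windows of Hnrnpl and Hnrnpr, which were not called, held 4 each. GGGCGG or CCGCCC, the GC box, occurred in 23 of the 29 windows (79.3%), against 32.9% of all promoters and 59% of those of tested protein-coding genes. CACGTG, the E-box, occurred in 2 (6.90%), against 6.05% and 8.53%. Both strands were searched. These matches of letters are a description and do not show binding.

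Members that did not pass the test included several of the most abundant. Srsf3, a small SR protein that also acts in RNA export, stood at 256, 314 and 290 CPM in resting wt, Eμ-deficient and 3′RR-deficient cells. After LPS it stood at 417, 298 and 215 CPM. The groups overlapped, since LPS libraries held both the highest and the lowest value, and the fitted log2 fold change was 0.07 ± 0.29 SE (edgeR adjusted p = 0.87). Srsf10, an SR protein that represses splicing when dephosphorylated after heat shock, stood at 106, 124 and 118 CPM in resting cells and at 288, 171 and 100 CPM after LPS. Its ratio was positive in wt and Eμ-deficient cells and negative in 3′RR-deficient cells (log2 fold change 0.55 ± 0.33 SE, edgeR adjusted p = 0.21).

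Hnrnpa2b1, which binds RNA with Hnrnpa1 in hnRNP particles, stood at 482, 690 and 585 CPM in resting cells and at 1399, 928 and 633 CPM after LPS. Each genotype was higher after LPS, but the 3′RR-deficient LPS library lay below the resting Eμ-deficient library. The log2 fold change was 0.69 ± 0.34 SE (edgeR adjusted p = 0.132). Hnrnpa3, a close relative of the same type, had a fitted log2 fold change of 0.84 ± 0.34 SE (edgeR adjusted p = 0.0772), its ratio being 1.75 in wt but 0.19 in 3′RR-deficient cells on the log2 scale. It was called in 5 of the 14 alternative settings, among them the fit without the 3′RR-deficient libraries (1.16, adjusted p = 0.0465). Counts of reads that map to several places were kept, so that genes with processed copies elsewhere in the genome, as Hnrnpa1 and Hnrnpa3 have, can exchange reads with them.

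Hnrnpk, which binds cytidine-rich RNA and DNA, stood at 345, 380 and 364 CPM in resting cells and at 683, 489 and 435 CPM after LPS. No resting library reached an LPS library, yet the fitted log2 fold change of 0.54 ± 0.28 SE did not pass the test (edgeR adjusted p = 0.148). Hnrnpl, which binds CA-rich RNA and represses the variable exons of Ptprc, stood at 166, 119 and 132 CPM in resting cells and at 187, 180 and 216 CPM after LPS. Here wt showed the smallest ratio, 0.18 on the log2 scale, against 0.60 and 0.71 in the mutants (fitted log2 fold change 0.49 ± 0.25 SE, edgeR adjusted p = 0.137). The wt ratio was no longer the smallest once the GC trend was taken out. The values were then close to each other, 0.61 in wt, 0.56 in Eμ-deficient and 0.58 in 3′RR-deficient cells. Hnrnpl was called without the wt libraries (log2 fold change 0.68, adjusted p = 0.0151).

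The other members that did not pass the test had fitted log2 fold changes between -0.26 and 0.67. Hnrnpr and Hnrnpul1 (0.67 and 0.66), Hnrnpf (0.60), Srsf7 (0.51), Hnrnpm (0.48) and Srsf4 (0.41) were positive. Hnrnpul2 (0.18), Hnrnph2 (0.04), Hnrnpdl (0.03), Srsf11 (-0.01), Hnrnph3 (-0.09), Hnrnph1 (-0.11) and Srsf6 (-0.26) lay nearer to 0 or below it. Without the wt libraries Srsf4 (0.73, edgeR adjusted p = 0.00846) and Hnrnpul1 (0.78, adjusted p = 0.00699) were called. Hnrnpm shares 14.7% of its exonic bases with March2 on the same strand, and Srsf4 shares 43.0% with Gm12992 on the opposite strand.

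Within the Srsf family, the make-up of the transcripts differed between the states more than their sum. Levels of different genes were compared only as CPM per kb of exon. Exon length counts the bases of all annotated exons, those of unproductive transcripts included, so that the shares depend on the annotation. Srsf5 made up 41.4%, 50% and 44.2% of the summed Srsf level per kb in resting wt, Eμ-deficient and 3′RR-deficient cells, and 23.7%, 22.4% and 19.1% after LPS. The mean share was 45.2% ± 4.38 (SD, n = 3) in resting and 21.7% ± 2.37 in LPS libraries, and it was the largest share in each resting library. Srsf1 had 8.92% ± 0.78 at rest and 15.7% ± 1.77 after LPS, and Srsf2 9.3% ± 1.96 and 19.7% ± 4.14, both without overlap between the states. The shares of Srsf7 and Srsf9 were also higher in all LPS libraries and that of Srsf6 was lower. Those of Srsf3, Srsf4, Srsf10 and Srsf11 overlapped. The summed Srsf CPM itself overlapped between the states, at 1945, 2545 and 2177 in resting and 2933, 2099 and 1881 in LPS libraries.

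**Figure D3:**
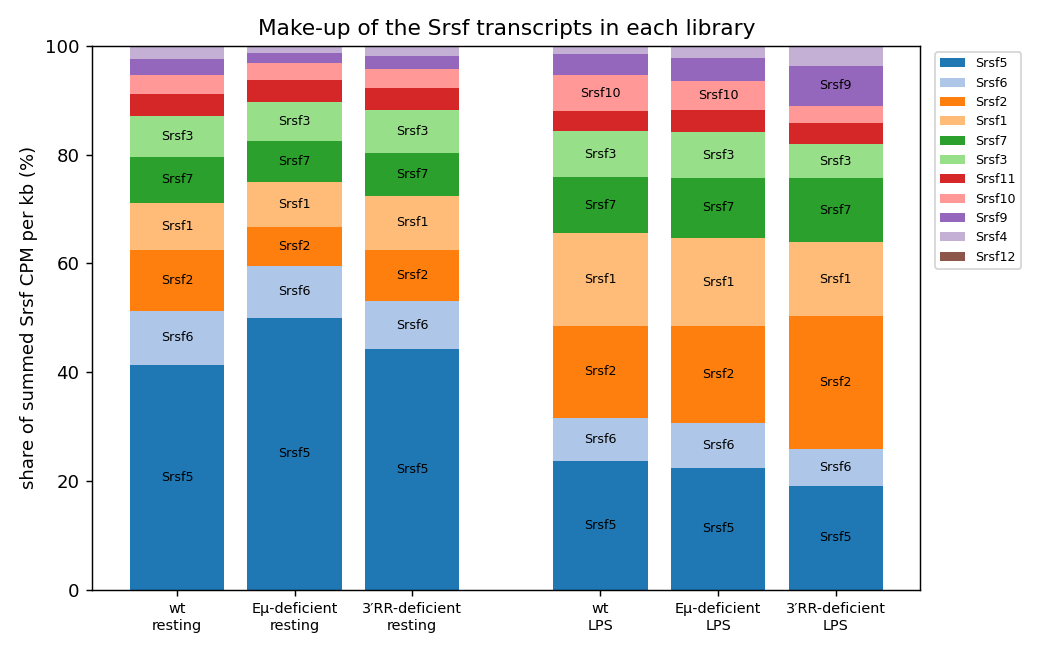
Share of each Srsf gene in the summed Srsf CPM per kb of exon (y axis, percent) in the 6 libraries (x axis, resting on the left, LPS on the right). The Srsf5 block takes between 41.4% and 50% of the resting bars and between 19.1% and 23.7% of the LPS bars, while the Srsf1 and Srsf2 blocks are wider in the LPS bars.

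The ratio of Srsf1 to Srsf5 within a library needs no scaling between libraries. The longest annotated transcripts of these 2 genes have nearly the same GC content, 40.6% and 40.1%. The log2 value of the ratio per exon length was -2.25, -2.60 and -2.18 in resting wt, Eμ-deficient and 3′RR-deficient cells and -0.47, -0.46 and -0.47 after LPS. The 3 LPS values were nearly equal, the 3 resting values less so. The change was 1.78, 2.14 and 1.70, a mean of 1.87 ± 0.23 (SD, n = 3). The change of this pair had a similar size in each genotype, including wt, in which the CPM of Srsf5 differed least between the states. Its direction followed from the choice of the pair, since Srsf1 rose and Srsf5 fell in each genotype. Other ratios to Srsf5 changed less evenly, by 2.14 ± 0.64 for Srsf2, 2.11 ± 0.814 for Srsf9 and 1.57 ± 0.431 for Srsf10. For Srsf2 and Srsf9 the change was smallest in wt. The ratio of Srsf5 to Srsf6 changed by -0.756 ± 0.243 and that of Srsf5 to Srsf4 by -1.42 ± 1.16. A similar size in each genotype was thus not general to ratios with Srsf5.

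Among the hnRNPs, the sum was higher after LPS in each genotype, at 3698, 4204 and 3992 CPM in resting wt, Eμ-deficient and 3′RR-deficient cells and at 8153, 5731 and 5239 CPM after LPS. Hnrnpa1 was the largest component per kb in every library, with 18.7% ± 0.543 (SD, n = 3) of the summed level in resting and 26.8% ± 2.36 in LPS libraries. The share of Hnrnpab was 6.77% ± 1.25 at rest and 10.1% ± 1.35 after LPS. In the other direction, the shares of the H type were lower in all LPS libraries, with 8.5% ± 1.3 and 4.72% ± 0.899 for Hnrnph1, 2.58% ± 0.122 and 1.59% ± 0.24 for Hnrnph2 and 2.05% ± 0.203 and 1.14% ± 0.0736 for Hnrnph3 in resting and LPS libraries. These proteins bind runs of guanosines near splice sites. Hnrnpf, which binds the same kind of RNA, kept overlapping shares of 11.7% ± 0.327 and 10.6% ± 1.16. The share of Hnrnpdl, the closest relative of Hnrnpd, was 4.39% ± 0.0801 at rest and 2.67% ± 0.132 after LPS, while that of Hnrnpd overlapped. The shares of Hnrnpk and Hnrnpul2 were also lower in all LPS libraries, although the CPM of both was higher after LPS in each genotype. No test was made on these shares, which depend on each other.

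The size of the LPS ratio of a member moved with its GC content, and differently in each genotype. The longest annotated transcripts of the members had a median GC content of 43.6%, from 37.1% in Hnrnph1 to 55.4% in Hnrnpa0. The median was 49.5% for the tested protein-coding genes. Over the 30 members, Spearman's rho between GC content and the log2 LPS ratio was -0.28 in wt, 0.46 in Eμ-deficient and 0.60 in 3′RR-deficient cells. These points share libraries and depth, and rho is given as a description. The members' median log2 ratio was 0.81 in wt, 0.44 in Eμ-deficient and 0.28 in 3′RR-deficient cells, and 28, 20 and 20 of the 30 members were higher after LPS, as were 47.7%, 50% and 46.9% of all genes. With the trend of all genes on GC content removed, the medians were 0.63, 0.43 and 0.56, and 28, 22 and 20 members were higher, against 49.9%, 50.2% and 49.7% of all genes. Fitted with that trend removed, 12 members were called higher (40%) and 1 lower (3.33%), with Hnrnpa3, Hnrnpl, Hnrnpr and Hnrnpul1 added to the 8 that rose. More genes were called in general in that fit, 24.8% higher and 25.5% lower. The part of GC content in the differences between genotypes was not tested.

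**Figure D4:**
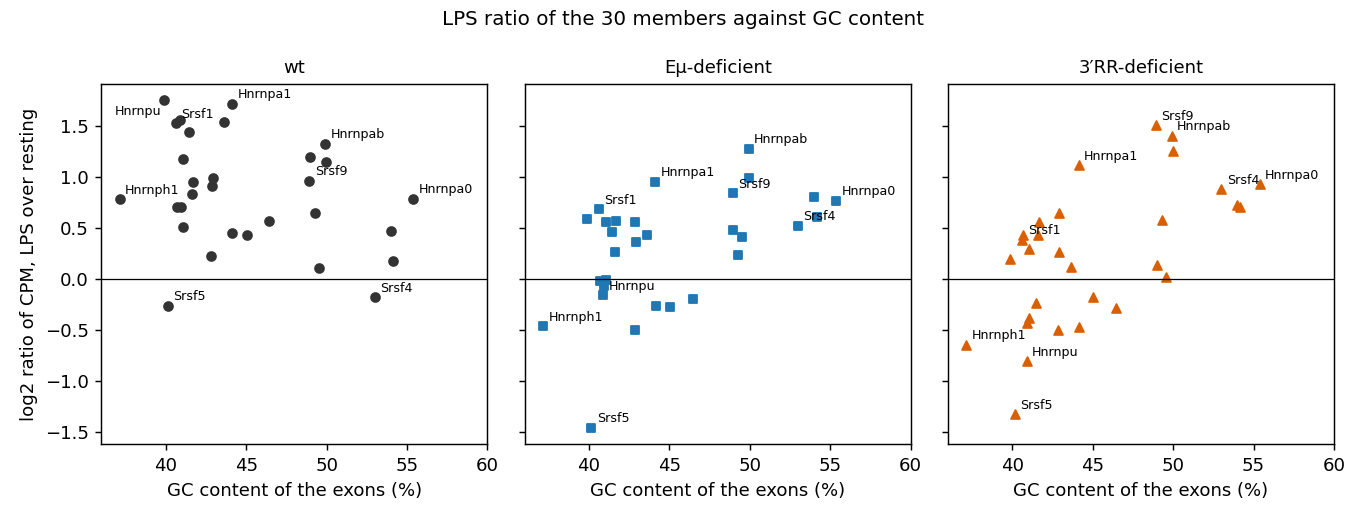
Log2 ratio of CPM, LPS over resting (y axis), against the GC content of the exons in percent (x axis) for the 30 tested members, with 1 panel for each genotype and 1 point for each member. The exons are those of the longest annotated transcript of each gene. Hnrnph1 and Hnrnpu lie above 0 in wt and below 0 in both mutants. Srsf1, of similarly low GC content, lies above 0 and Srsf5 below 0 in all 3 panels, and Hnrnpab and Hnrnpa0 lie at similar heights in each.

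No member passed the test in the genotype comparisons. For 3′RR-deficient against wt, 0 of 30 members were called in the edgeR fit over both states, against 0.678% of all genes. None had an unadjusted p under 0.05, DESeq2's Wald test called 0, and the lowest adjusted p was 0.914. For Eμ-deficient against wt, 0 members were called, against 1.16% of all genes. Hnrnpll was the only member with an unadjusted p under 0.05, and DESeq2 called 0. The median log2 fold change of the members was -0.27 for 3′RR-deficient and -0.17 for Eμ-deficient against wt, against 0.04 and -0.01 over all genes. Both comparisons use the same wt libraries, and 26 of 30 members had a negative fitted value in each.

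The fitted values join 2 states that often disagreed. In Eμ-deficient cells, 18 members (60%) were above wt in resting and below it after LPS, as were 25.4% of all genes, and 2 (6.67%) showed the reverse, against 25.3%. In 3′RR-deficient cells 18 members (60%) showed the first pattern, against 26.4% of all genes, and 5 (16.7%) the reverse, against 29.4%. For Eμ-deficient cells the median of the members' log2 ratios to wt was 0.17 at rest and -0.44 after LPS, and for 3′RR-deficient cells it was 0.14 and -0.53. With the GC trend removed these medians were -0.08, -0.37, 0.03 and -0.20. At rest, 19 of 30 members were above wt in each mutant. With the GC trend removed, 11 were so in Eμ-deficient and 16 in 3′RR-deficient cells, against 48.4% and 48.8% of all genes. The order at rest also depended on scaling. With total counts Hnrnpa1, Hnrnpf, Hnrnpk and Hnrnpr, among others, were below wt at rest in both mutants. Srsf1, Srsf5, Hnrnpa2b1 and Hnrnpu, among others, stayed above it. Only Hnrnpll was above wt in both states in Eμ-deficient cells (3.33%), as were 26.8% of all genes, and 9 members were below wt in both states (30%), as were 22.5% of all genes. In 3′RR-deficient cells Hnrnpul2 alone was above wt in both states (3.33% against 25.5% of all genes), and 6 members were below (20% against 18.6%). Hnrnpa0, Hnrnpab, Hnrnpc, Hnrnpd and Hnrnpm were below wt in both states in both mutants, and each of these comparisons uses the same 2 wt libraries. The share of all genes below wt in both mutants together was not counted, so this order is not shown to be particular to these members.

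Hnrnpll, which with Hnrnpl silences Ptprc exons and is known as a regulator of splicing in activated T-cells and plasma cells, was the least abundant tested member (chr17:80029487-80062334, minus strand). It stood at 3.58, 12.6 and 4.08 CPM in resting wt, Eμ-deficient and 3′RR-deficient cells (65, 167 and 84 counts). After LPS it stood at 5.83, 12.5 and 5.50 CPM (122, 133 and 49 counts). The 2 Eμ-deficient libraries were above all others. The log2 ratio of Eμ-deficient over wt was 1.82 in resting (95% interval 1.4 to 2.26) and 1.10 in LPS libraries (0.73 to 1.46), intervals for counting error alone. The fitted difference was 2.74-fold (log2 fold change 1.46 ± 0.35 SE, edgeR adjusted p = 0.116) and did not pass the threshold, but it did without a filter on low counts (adjusted p = 0.0233). Without that filter 605 of 29041 genes were called, against 170 of 14600 with it.

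The summed markers of other cells were, like Hnrnpll, highest in the Eμ-deficient library of each state. The 5 plasma cell markers summed to 546, 2230 and 591 CPM in resting wt, Eμ-deficient and 3′RR-deficient cells and to 581, 1590 and 891 CPM after LPS. Jchain, which joins the chains of secreted IgM and IgA, stood at 113, 1730 and 171 CPM in resting cells and at 96.1, 803 and 200 CPM after LPS. It was the largest of the 5 in both Eμ-deficient libraries, whereas in the other libraries the largest was Irf4, a transcription factor that B-cells also express, at 268 to 385 CPM. The erythroid sum was also highest in the Eμ-deficient library of each state, as was that of the 6 myeloid markers, with 149, 361 and 150 CPM in resting and 21.2, 33.2 and 28.2 CPM in LPS libraries. The 7 T-cell markers summed to 18, 35.7 and 25.2 CPM in resting and to 1.10, 5.43 and 2.02 CPM in LPS libraries. The erythroid, myeloid and T-cell sums fell with LPS in each genotype, while Hnrnpll in Eμ-deficient cells differed by -0.02 on the log2 scale. The part of these cells in the Hnrnpll difference was not tested.

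Hnrnpu, a scaffold-attachment and RNA-binding protein and the largest of the classic hnRNPs, showed the widest range of LPS ratios (chr1:178321108-178337797, minus strand). It stood at 64.9, 118 and 78.1 CPM in resting wt, Eμ-deficient and 3′RR-deficient cells. After LPS it stood at 190, 106 and 44.7 CPM. The LPS libraries held both the highest and the lowest value. Its log2 ratio of LPS over resting was 1.55 in wt (95% interval 1.46 to 1.65), -0.16 in Eμ-deficient (-0.27 to -0.05) and -0.81 in 3′RR-deficient cells (-0.97 to -0.65). The 3′RR-deficient over wt log2 ratio was 0.27 at rest and -2.09 after LPS, or -1.43 in the latter with the GC trend removed, and the fitted difference of -0.98 ± 0.51 SE was not called (edgeR adjusted p = 0.914). Without the 3′RR-deficient LPS library that difference was -0.22. Its exons overlap those of Cox20 on the opposite strand over 6.93% of their length.

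Annotation of the transcripts gives a feature that the choice of members did not use. In GENCODE M21, 19 of the 31 members (61.3%) had a transcript annotated for nonsense-mediated decay, against 29.4% of the 11739 tested protein-coding genes. This applied to 9 of 11 Srsf genes (81.8%) and 10 of 20 Hnrnp genes (50%). A transcript with a retained intron was annotated for 22 members (71%), against 59.6% of the tested protein-coding genes. Counts per gene sum productive and unproductive transcripts, so that a change in a member's count is not a change of its protein-coding form.

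The partners of the members were examined as lists, beside the 19.7% of all genes called higher and the 21.1% called lower. Of 13 kinases, phosphatases and import factors of SR proteins, 3 rose (23.1%) and 4 fell (30.8%) with LPS, shares near those of all genes, with a median log2 fold change of -0.34. The 4 that fell were kinases, and 5 were lower at an unadjusted p under 0.05. Clk1, a nuclear kinase that phosphorylates SR proteins, stood at 558, 802 and 612 CPM in resting wt, Eμ-deficient and 3′RR-deficient cells and at 130, 123 and 87.4 CPM after LPS (log2 fold change -2.54 ± 0.29 SE, edgeR adjusted p = 0.000279). Srpk3 (-1.68), Clk4 (-1.25) and Clk3 (-1.03) also fell, whereas Clk2 had a value of -0.45 and was not called (edgeR adjusted p = 0.126). Those that rose were the cytoplasmic SR kinase Srpk1 (0.73) and the phosphatase subunits Ppp1ca (1.11) and Ppp1cc (1.00). Tnpo3, the import receptor of SR proteins, had a value of 0.46 (edgeR adjusted p = 0.117).

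Of 30 SR-related proteins, 3 rose and 3 fell, 10% in each direction and below the shares of all genes, with a median log2 fold change of -0.06. Rbm39, a splicing factor related to U2af2, fell (-1.19, edgeR adjusted p = 0.0176), as did Zrsr2 (-0.90), which acts on minor introns, and Tra2a (-0.87), which binds exonic enhancers. Pnn (1.00) and Rnps1 (0.99), both linked to the exon junction complex, rose, as did U2af1 (0.93), which reads the end of introns. Of 27 tested genes for other hnRNP-type RNA-binding proteins, 10 rose (37.0%) and 3 fell (11.1%), against 19.7% and 21.1% of all genes, and the median was 0.52, the same as that of the members. Pcbp1 (1.42), Fubp3 (1.33) and Pcbp4 (1.30) rose, and the cold-inducible Cirbp (-1.29), Ptbp2 (-0.83) and Celf2 (-0.72) fell. Clk3, Srpk1, Ppp1cc, Zrsr2, Tra2a, Ptbp2 and Celf2 were named after their values were seen, to complete these counts.

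The core spliceosome had the highest median of the lists, a log2 fold change of 1.13. Of its 35 genes, edgeR called 27 higher (77.1%, against 19.7% of all genes) and 0 lower, with 1 lower at an unadjusted p under 0.05 and 1 called lower by DESeq2. Lsm2 (2.32) and Lsm7 (2.18), parts of the ring on U6 snRNA, and the Sm proteins Snrpd2 (2.06) and Snrpf (1.96) had the largest rises. Sf3b1, the U2 component that holds the branch site, had a value of -0.64 (edgeR adjusted p = 0.072), and Prpf3 one of -0.18 (adjusted p = 0.54). Of 10 nonsense-mediated decay genes, edgeR called 0 higher, with 0 higher at an unadjusted p under 0.05 and 0 by DESeq2, and 3 fell (30%, against 21.1% of all genes), Smg9 (-0.91), Smg6 (-0.79) and Smg1 (-0.79), with a median of 0.01. Of the 115 tested genes of these 5 lists, edgeR and DESeq2 each called 0 in either genotype comparison, with 2 at an unadjusted p under 0.05 for 3′RR-deficient and 4 for Eμ-deficient against wt in the edgeR fit.

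**Figure D5:**
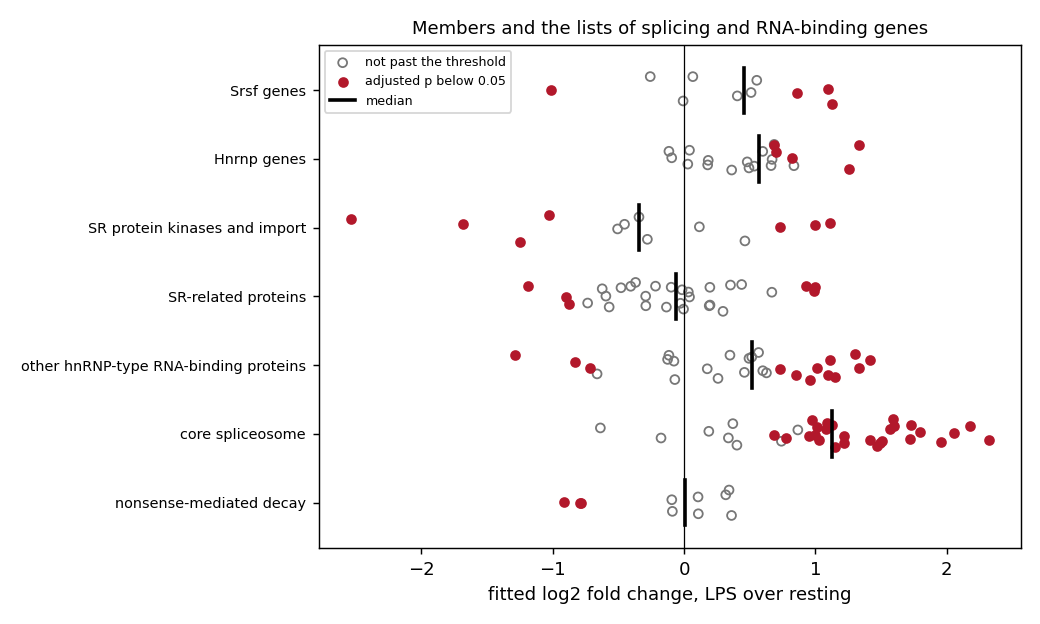
Fitted log2 fold change, LPS over resting (x axis), of the tested Srsf and Hnrnp genes and of the genes of 5 lists (y axis), with 1 point for each gene, filled where the adjusted p was below 0.05, and a bar at the median. The core spliceosome points lie furthest to the right, with a median of 1.13, whereas kinases of SR proteins reach furthest to the left, down to -2.54 for Clk1.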

How the data were processed

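RNA was measured by stranded, ribosomal-RNA-depleted total RNA-seq (2 × 150 nt) in the 6 libraries described above. The authors mapped reads to mm10 with STAR (2.4.0a per the submitters' processing notes) and the Ensembl gene models. They deposited raw counts per gene name, made with featureCounts of Subread 1.4.6-p1, with multi-mapping reads included at their primary place. The stated strand option is not the one this kind of kit needs, but the counts lie on the sense strand, since 31 antisense genes inside coding exons had a median of 0.487% of the counts per kb of their coding partner. Spike-in RNAs, 92 names with 4.75% to 7.10% of the counts, entered neither library sizes nor tests.

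Members and lists were chosen with earlier results of these data known. A minimum of 10 counts in 2 or more libraries left 14600 genes. These were fitted with edgeR 4.0.16 (R 4.3.3, quasi-likelihood, TMM scaling, Benjamini-Hochberg threshold 0.05). In simulated counts with 1 dispersion for all genes and 200 of 14600 genes changed, the LPS test recovered 19% of genes given a log2 change of 1 in either direction. It recovered 93% of those given a change of 2. In the data 40.8% of all genes were called, which makes the adjusted threshold less strict, so recovery there can differ from these shares. A member that did not pass the test is not shown to be unchanged. An interaction of genotype and state had no residual degrees of freedom. DESeq2 1.42.0, 5 other scalings or offsets, 2 filters and left-out libraries were tried as alternatives. Intervals at 95% (scipy 1.17.1) reflect counting error alone, because each group has 1 library. PCR copies are no independent molecules, so the intervals can be too narrow even for counting error. Exon lengths, GC content and transcript types come from GENCODE M21 (GRCm38). Of 47055 names, 44203 were found there directly and 758 more through an older name. GC content is that of the longest annotated transcript of each gene. Genes given with values in every library were the 6 members with the largest called rises, those called lower and 9 chosen for known roles or abundance. Protein sequences and isoform counts were not used here.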

Additional observations from a re-analysis of the deposited data

Results flagged for a closer look

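In 10 members the LPS over resting ratio was flagged as pointing in opposite directions in different genotypes, in 19 pairs of genotypes in all. The share of all genes with such pairs was not counted, so the pattern is not shown to be particular to the members. The differences below are the log2 ratio of the genotype named last minus that of the genotype named first. None of these differences was tested, since each ratio rests on 1 library of each state. With the trend on GC content removed, 13 of the 19 pairs still had opposite signs, but each difference was smaller in size. In Eμ-deficient and 3′RR-deficient cells against wt they became -1.23 and -1.57 for Hnrnpu and -0.698 and -0.681 for Hnrnpdl. For Srsf3 they became -0.298 and -0.351, and for Hnrnph1 -0.437 and -0.217, with a ratio of -0.003 left in 3′RR-deficient cells. For Hnrnph2 the difference in 3′RR-deficient cells became -0.122.

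Against wt, where the ratio was positive, Hnrnpu was lower by -1.71 in Eμ-deficient and -2.36 in 3′RR-deficient cells, the widest gaps among the members. For Hnrnph1 the differences were -1.24 and -1.42, and for Hnrnph3 -0.716 and -0.914, in the same order. For Hnrnph2 only 3′RR-deficient cells pointed clearly the other way, with a difference of -0.891. Hnrnpdl differed by -0.766 and -0.848, so that all members of the H type but Hnrnpf, and Hnrnpdl, were higher after LPS in wt alone.

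Among the SR proteins, Srsf3 differed from wt by -0.779 in Eμ-deficient and -1.13 in 3′RR-deficient cells, Srsf6 by -0.72 and -0.723, and Srsf11 by -0.707 and -0.603. Srsf4 went the other way, with differences of 0.698 and 1.06, its ratio being negative in wt and positive in both mutants. For Srsf10 the 3′RR-deficient ratio was the negative one, and it differed by -1.67 from wt and by -0.695 from Eμ-deficient cells. With the GC trend removed, the pairs of Srsf4, Srsf6 and Srsf10 no longer had opposite signs. Beside these values, the longest annotated transcript of Srsf4 has a GC content of 53.0%, against 37.1% to 46.4% for the other 9.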

How the results depend on the processing

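The count of 9 members called with LPS (30%, against 40.8% of all genes) became 3 (2 higher, 1 lower, 10%) with spike-in scaling, where 29.8% of all genes were called, and 5 (16.7%, against 38.2%) without the 3′RR-deficient libraries with the GC trend removed, an alternative added after the data were seen. Leaving out each genotype in turn gave 4 without Eμ-deficient (13.3%, against 28.0% of all genes) to 11 without wt (36.7%, against 47.9%), and 5 without 3′RR-deficient (16.7%, against 34.0%). The count was 6 with total count scaling (20%, against 39.4%), 10 without a filter (32.3%, against 22.6%), 12 with DESeq2's Wald test (40%, against 39.2%) and 13 with the GC trend removed (43.3%, against 50.4%). The median member change stayed between 0.315 and 0.697. Spike-in scaling moved the median of all genes to -0.279, and Srsf1, Srsf2, Srsf9, Hnrnpa0, Hnrnpc and Hnrnpd were then not called. Without a filter, Hnrnpll made 1 of 31 members called for Eμ-deficient against wt, where 605 of 29041 genes were called. In all other settings, that count of members and the one for 3′RR-deficient against wt stayed at 0. The members whose fitted LPS change turned its sign were all uncalled in every setting, and the cause was not tested. With spike-in scaling the values were -0.14 for Srsf3, -0.179 for Hnrnpdl, -0.168 for Hnrnph2, -0.00887 for Hnrnpu and -0.0277 for Hnrnpul2. With total count scaling they were -0.0254 for Srsf3, -0.0642 for Hnrnpdl and -0.0521 for Hnrnph2. Srsf11 gave 0.0014 with TMM scaling without immunoglobulin genes and 0.0248 without a filter. With at least 50 counts, Hnrnpdl gave -0.0205 and Hnrnph2 -0.0077. With the GC trend removed, Hnrnpdl gave -0.0060 and Hnrnph1 0.0052. Leaving out each genotype in turn gave -0.227 to 0.304 for Srsf3, -0.203 to 0.221 for Srsf11, -0.217 to 0.236 for Hnrnpdl, -0.529 to 0.161 for Hnrnph1, -0.171 to 0.238 for Hnrnph2, -0.344 to 0.0858 for Hnrnph3 and -0.454 to 0.687 for Hnrnpu, each lowest without wt. Without the 3′RR-deficient LPS library, an added alternative, Srsf11 gave 0.0796, Hnrnph1 0.16 and Hnrnph3 0.0948. With 1 library per group, depth limits the precision least in the abundant members and most in Hnrnpll and Srsf12.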
